A study of Mus musculus with 18 samples.

Results

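The 3 genes described here are Csf1r, which encodes the receptor for colony-stimulating factor 1 (CSF1), and the genes of its 2 known ligands, Csf1 and Il34. They were read by symbol from every expression table of a mouse glioma study and make up 3 of the 35842 genes in the table of Ras-driven tumours. All 3 were present in each of the 3 bulk tables and in both single-cell tables. CSF1R is a receptor tyrosine kinase of the mononuclear phagocyte lineage. Microglia and most tissue macrophages depend on its signal for survival, division and differentiation, and blocking the kinase depletes microglia from the brain. CSF1 is a secreted or membrane-bound cytokine made by many cell types, and interleukin 34 (IL-34) is a second ligand that binds the same receptor and is made by neurons in the healthy brain.

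The tumours were gliomas of Boy/J mice. The Ras tumours carried the activated oncogene HRasV12 and a dominant negative p53, and the other model was driven by the growth factor PDGFB. Whole Ras tumours were taken from 4 vehicle mice and 4 mice given PLX3397 (pexidartinib), an inhibitor of the CSF1R, KIT and FLT3 kinases, at 100 mg/kg by daily gavage from day 7 after implantation until the animals were moribund, so the days of treatment may differ between animals. The vehicle animals are titled as such, although their treatment label reads untreated. CD11b+ cells, a magnetic bead selection for myeloid cells, came from PDGFB tumours of 1 vehicle mouse and 2 mice given 100 mg/kg PLX3397 for 3 days from day 14. Cultured tumour cells were 2 Ras lines and 3 PDGF lines. The Ras lines grew in serum-free medium with EGF and FGF and the PDGF lines in a different medium that also held PDGF-AA and PDGF-BB, so driver and medium cannot be told apart. Cells of untreated Ras tumours were profiled in 1 10x library and 1 Drop-seq library. Ages of the animals are not given in the sources used here.

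The bulk libraries held 26.8 to 35.8 M counts each (M for mega). The 10x library held 4384 barcodes with 59.3 M UMIs (unique molecular identifiers, each counting 1 captured transcript molecule), of which 3320 barcodes passed the filters with a median of 8351 UMIs. The Drop-seq library held 5000 barcodes with 9.67 M UMIs, of which 4901 passed with a median of 1396. No barcode sequence was shared by the 2 single-cell libraries. With 1 library each, the single-cell values have no replicates and no test was made on them. Intervals for these values are exact Poisson (levels) or exact binomial (shares of cells) 95% intervals and cover counting error only.

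In mouse genome build GRCm38, Csf1 lies on the minus strand of chromosome 3 from 107741048 to 107760469. Il34 lies on the minus strand of chromosome 8 from 110741829 to 110805924. The stretch of 250 bases upstream of the annotated Csf1 start is shown because Csf1 is the ligand with most transcript in these data. It was read from RefSeq (GRCm38.p6, minus strand, chr3:107760470-107760719, 5′ to 3′), and capitals mark matches to the GC box GGGCGG.

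Csf1: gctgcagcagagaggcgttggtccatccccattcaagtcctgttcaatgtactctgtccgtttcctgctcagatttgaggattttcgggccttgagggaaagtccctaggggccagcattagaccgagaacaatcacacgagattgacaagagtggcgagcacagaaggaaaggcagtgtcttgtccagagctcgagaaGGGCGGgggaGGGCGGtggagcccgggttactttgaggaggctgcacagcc

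The letters GGGCGG, searched on both strands, occurred 2 times, beginning 51 and 41 bases before the start. Among 32851 promoter stretches of the same length, 32.7% held this motif. The AP-1 letters TGANTCA and the STAT letters TTCNNNGAA had no match in this window, and 6.75% and 7.02% of all promoter stretches held them. These are matches of letters only, and they do not show that a factor binds there. Of the 3 members, only Csf1 was found in the promoter table used.

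The receptor and the ligands peaked in different cell clusters of the Ras tumour. The receptor was found almost wholly in macrophages, Csf1 was highest in neutrophil-like cells, and Il34 was highest in a small cluster with vascular and stromal genes. Clusters were built without the 3 genes, and a cluster was named only where at least 3 markers of a cell type were detected and its leading genes fitted the name. Levels are in CPM, the UMIs of a gene as a part of all UMIs of the cluster, in parts per 1000000. Cells were not sorted before capture, and red cells were lysed.

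Csf1r in the 10x library reached 503 CPM (95% interval 486 to 520) in the 536 cells of the macrophage-like clusters. These cells held 3399 of the 3547 Csf1r UMIs, or 95.8%. The macrophage-like cells fell into 2 clusters. The cluster led by Arg1, Rgs1 and Cd74 (269 cells) also expressed 11 markers of monocyte-derived macrophages and 8 of microglia. It had a Csf1r level of 530.2 CPM (511.0 to 550.0). The cluster led by the microglial gene Fcrls with Cst7 and C1qb (267 cells) had 9 microglial markers and 5 of monocyte-derived macrophages. Its Csf1r level was 393 CPM (360.1 to 428). The intervals do not overlap, so the measured level of the receptor was higher in the Arg1 cluster than in the Fcrls cluster of this library beyond counting error. Ptprz1, a gene most abundant in a neural-like cluster, was at 303 CPM in the Fcrls cluster and 46.6 CPM in the Arg1 cluster. The part of free RNA from other cells in the difference in Csf1r was not tested.

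At least 1 Csf1r UMI was seen in 89.6% of the cells of the Arg1 cluster and in 59.9% of the Fcrls cluster, whose median depths were 14940 and 2569 UMIs. After thinning each cell to 2000 UMIs the expected shares were 58.1% (262 cells, 7 shallower cells left out) and 49.5% (170 cells, 97 left out). In erythroid-like cells, which should lack the receptor, 2 of 169 cells had a Csf1r UMI (1.18%, median depth 2331 UMIs), or 3.56 CPM. The neutrophil-like cluster, led by S100a8, S100a9 and Ccl3, held 8 Csf1r UMIs in 8 of 79 cells, a level of 32.5 CPM (14.0 to 63.9) that lay above the erythroid interval (0.431 to 12.8) and more than 10 times below the macrophages. All other clusters had a measured level of 12.1 CPM or lower. Small or shallow clusters leave this wide. With no Csf1r UMI, the exact intervals reached 45.9 CPM in T cell-like cells, 34.6 in B cell-like cells and 125 in an unnamed cluster led by Alb. In the cluster led by Lcn2, Crispld2 and Gfap, 34 of the 48 Csf1r UMIs came from 1 cell.

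Csf1 had another order of levels in the 10x library. It was highest in the 79 neutrophil-like cells, at 402 CPM (326 to 489), with a UMI in 46 of them (58.2%). The Arg1 macrophage cluster followed at 69.9 CPM (63.0 to 77.3), then the neural-like cluster led by Lcn2, Crispld2 and Gfap at 37.7 CPM (32.8 to 43.2). An unnamed cluster led by Snhg11 had 32.4 CPM (17.2 to 55.3), and the Fcrls macrophage cluster 21.5 CPM (14.4 to 30.9). Within the macrophages, Csf1 therefore stood higher in the Arg1 cluster than in the Fcrls cluster beyond counting error. The Fcrls, Snhg11 and remaining intervals overlapped that of the erythroid-like cells, taken as background (12.4 CPM, 5.003 to 25.6, with a UMI in 3.55% of cells). Median depth was 2331 UMIs in the erythroid-like cells, 2569 in the Fcrls cluster, 19370 in the Tnr cluster and 28110 in the dividing cells. The part of free RNA may differ with depth. The overlap therefore does not show whether Csf1 in those clusters exceeds background, and no test was made.

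The remaining clusters with a Csf1 UMI ranged from 9.73 CPM in the dividing cells to 18.8 CPM in a cluster led by Nrgn and the platelet gene Ppbp. Among them was the neural-like cluster led by Tnr, Clca3a1 and Lhfpl3, with 5 markers of oligodendrocyte precursors, whose 921 cells had a Csf1 level of 13.4 CPM (11.97 to 14.98). This cluster held 313 Csf1 and 55 Csf1r UMIs, and the macrophage-like clusters 407 and 3399. The neutrophil-like cluster held 99 and 8, and the erythroid-like cells 7 and 2. The part of free RNA in these counts was not tested. The neural-like clusters, 1255 cells, together held 40.9% of all Csf1 UMIs, the macrophage-like clusters 31.9% and the neutrophil-like cluster 7.76%. Of the 54.7 M UMIs of all genes in the kept cells, these classes held 28879877, 6760005 and 246547.

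Some macrophages held UMIs of both Csf1 and its receptor. Of 401 macrophage-like cells with a Csf1r UMI, 121 (30.2%) also had a Csf1 UMI, and in all other cells 28 of 91 (30.8%) did. The 124 macrophage-like cells with a Csf1 UMI were deeper, with a median of 24100 UMIs against 4858 in the others, and the part of depth in this overlap was not tested. After thinning to 2000 UMIs, the expected share of cells with a Csf1 UMI was 10.3% in the Arg1 cluster, 2.71% in the Fcrls cluster, 47.1% in the neutrophil-like cluster and 2.42% in the erythroid-like cells.

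Il34 was scarce, with 198 UMIs in the filtered 10x cells. Its level was highest in a cluster of 55 cells led by Igfbp7, Mgp and Cldn5, at 43.6 CPM (34.1 to 55.0), with a UMI in 25 cells (45.5%) and 36.4% of all Il34 UMIs. Endothelial (10), pericyte (7) and fibroblast (5) markers were all detected in this cluster. It was left unnamed because its leading genes included more fibroblast markers (Col1a1, Dcn) than endothelial ones (Cldn5). Il34 stood at 8.84 CPM (6.54 to 11.7) in the Lcn2 and Gfap cluster and at 5.92 CPM (4.17 to 8.16) in an unnamed cluster led by Nppb, Nefl and Gm26772, 2 levels whose intervals overlap. Both intervals also overlap that of the erythroid-like cells (exact 95% interval 0 to 6.56 CPM), that of the Lcn2 and Gfap cluster only barely. Overlap of intervals is not a test, and whether either level exceeds background was not tested. Macrophage-like cells held 3 Il34 UMIs in 536 cells, or 0.444 CPM (0.0915 to 1.30). No Il34 UMI was found in the neutrophil-like cells, where the exact interval reached 14.96 CPM, nor in the erythroid-like cells, where it reached 6.56 CPM.

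Within that cluster Il34 was uneven. This split of the cells was chosen after the values were seen, by the marker list with the most UMIs in each cell, and 6 of the 55 cells lay within 1.5 times of a tie. The 17 cells with most pericyte UMIs had 87.4 CPM (60.6 to 122) of Il34, with a UMI in 14 of them. The 10 cells with most fibroblast UMIs had 76.5 CPM (52.0 to 109). The 28 cells with most endothelial UMIs had 8.18 CPM (3.29 to 16.9), below the other 2 sets.

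**Figure D1:**
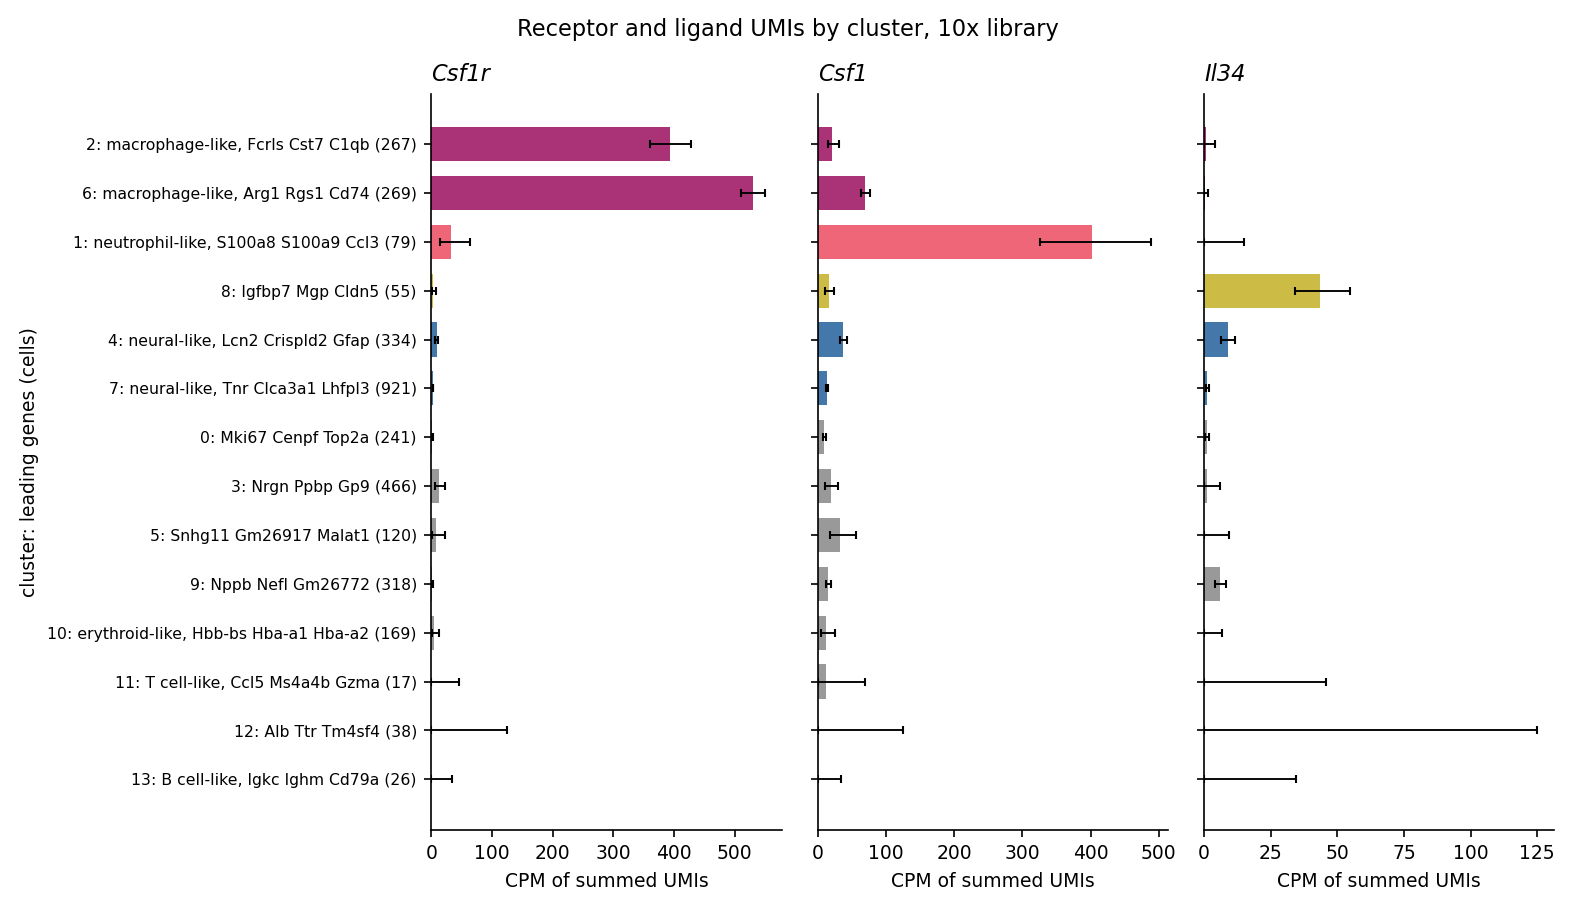
Levels of Csf1r, Csf1 and Il34 in each cluster of the 10x library. Bars give the level in CPM, black lines the exact 95% Poisson interval, and row labels the cluster number, its name if any, its 3 leading genes and its number of cells. Csf1r is high in clusters 2 and 6 (393 and 530.2 CPM), Csf1 in cluster 1 (402 CPM) and Il34 in cluster 8 (43.6 CPM). The x axes differ between panels.

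In the Drop-seq library, of far lower depth, the receptor and Il34 were again highest in macrophage-like cells and in a cluster with vascular and stromal genes. Its macrophage-like cluster (178 cells, led by Lyz2, Ctss and C1qa) had a Csf1r level of 459 CPM (376 to 556) and held 106 of the 134 Csf1r UMIs, or 79.1%. The other clusters held 0 to 9 Csf1r UMIs each, at 12.4 CPM or lower. For a cluster of 22 oligodendrocyte-like cells with 0 UMIs the exact interval reached 98.8 CPM. Il34 had 35 UMIs in all. Of these, 15 (42.9%) fell in the 80 cells of a cluster led by Igfbp7, Mmp9 and Col1a1, at 92.9 CPM (52.0 to 153). There too the 30 cells with most pericyte UMIs had the highest level, 229.9 CPM (115 to 411) from 11 UMIs, but with 2 Il34 UMIs in each of the other 2 sets the intervals overlapped (12 of the 80 cells lay near a tie). The macrophage-like cluster had no Il34 UMI in 178 cells of a median depth of 1070 UMIs, with an exact interval that reached 15.99 CPM.

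For Csf1, the Drop-seq macrophage-like cluster had 86.7 CPM (52.9 to 134) from 20 UMIs. That interval lies above those of the 5 large clusters of at least 771 cells, which ranged from 11.7 to 22.7 CPM. An oligodendrocyte-like cluster of 22 cells had 107 CPM, but this rests on 4 UMIs in 2 cells (29.2 to 274). No Drop-seq cluster was named neutrophil-like, so the 10x value for these cells has no counterpart in it.

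**Figure D2:**
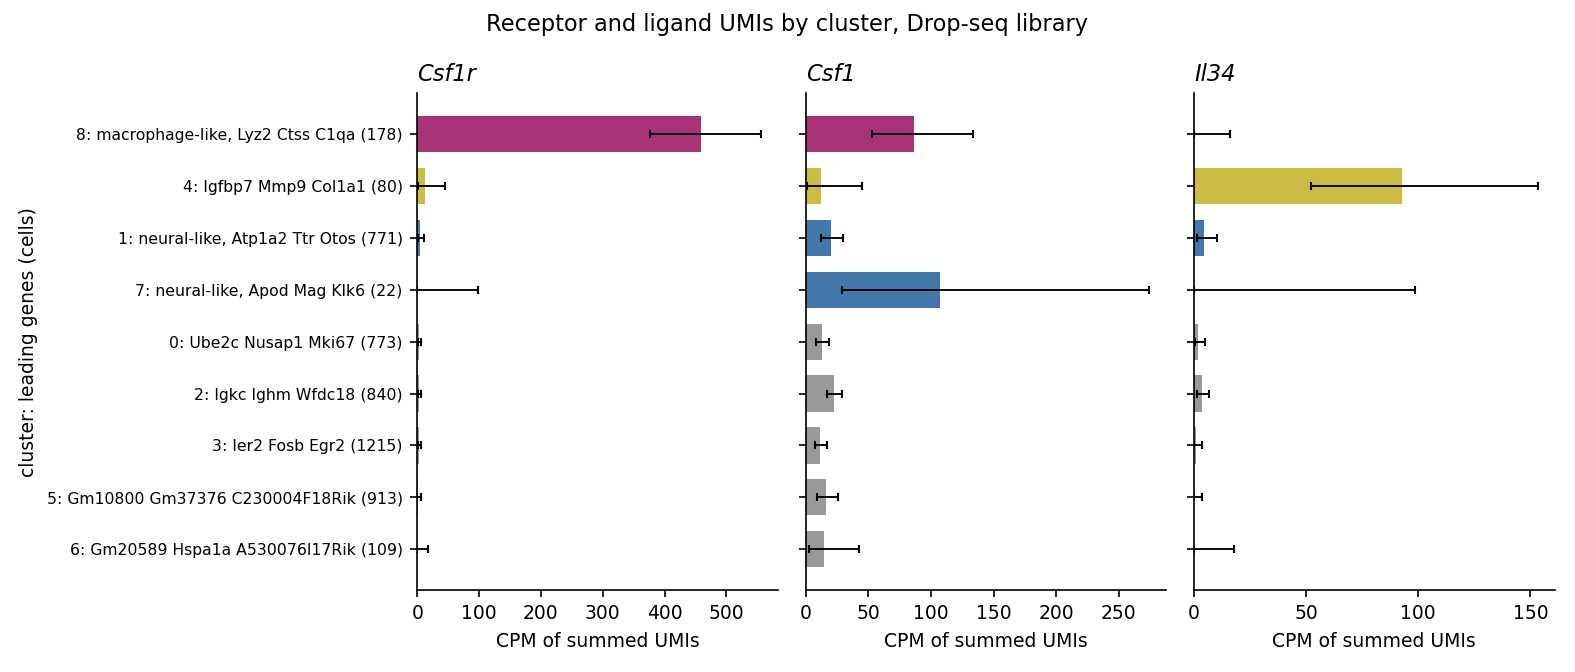
Levels of Csf1r, Csf1 and Il34 in each cluster of the Drop-seq library, in CPM with exact 95% Poisson intervals. Row labels give the cluster number, its name if any, 3 leading genes and the number of cells. Csf1r is high in cluster 8 (459 CPM) and Il34 in cluster 4 (92.9 CPM). The bar for Csf1 in cluster 7 rests on 4 UMIs.

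By the fixed measure of likeness, Pearson's r of log2 (CPM + 1) over the 11 10x clusters of at least 50 cells and 12806 genes, the genes most like Csf1r were Ctss (0.992), C3ar1 (0.988), Fcgr1 (0.981), Fcgr2b (0.976) and Lyz2 (0.973). Those most like Csf1 were Sorl1 (0.952), Ddx60 (0.938), Sema4a (0.937), Tfeb (0.936) and Slpi (0.925). Those most like Il34 were Ccdc3 (0.971), Serpinf1 (0.954), Pvrl2 (0.95), Gsta4 (0.944) and Pls3 (0.941). These are descriptions over clusters that share 1 library, with no test.

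The partners of the pathway were placed as follows in the 10x library. Ptprz1, a receptor phosphatase that also binds IL-34, was at 1263 CPM in the Tnr and Lhfpl3 cluster, which held 61.2% of its UMIs, and at 46.6 CPM in the Arg1 macrophage cluster. Erythroid-like cells, which should lack it, had 259.6 CPM (219 to 305), so the 303 CPM of the Fcrls cluster is not distinguishable from background. Sdc1, a cell-surface proteoglycan reported to bind IL-34, was at 229 CPM in the Nppb cluster, with 55.6% of its UMIs, and at 82.4 CPM in the Igfbp7 cluster. Spi1, the transcription factor PU.1 that acts on Csf1r, was at 378 CPM in the Arg1 cluster, 286 CPM in the Fcrls cluster and 499 CPM in the neutrophil-like cells, where the receptor itself was at 32.5 CPM. Csf2rb, the shared beta chain of the GM-CSF receptor, was at 213 CPM in the Arg1 cluster and 71.2 CPM in the Fcrls cluster. The other kinases that PLX3397 inhibits were low in macrophages, with Kit at 2.96 CPM and Flt3 at 5.91 CPM in the Arg1 cluster, and Kit was at 52.1 CPM in the Igfbp7 cluster.

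In whole Ras tumours, Csf1r stood lower in the PLX3397 mice while the levels of both ligands overlapped between groups, but no gene of this comparison passed the test. Values are CPM scaled by TMM, edgeR's default normalization. Csf1r was at 293.2, 282.7, 270.5 and 154.8 CPM in vehicle mice 1 to 4, and at 173.2, 105.9, 24.6 and 44.3 CPM in PLX3397 mice 1 to 4. The groups overlapped only because vehicle mouse 4 was below PLX3397 mouse 1. The group means were 250.3 ± 64.3 (SD, n = 4) and 87.0 ± 67.1 CPM (SD, n = 4), a log2 fold change of -1.52 (SE 0.57). The unadjusted p of edgeR's quasi-likelihood test was 0.0267 and its Benjamini-Hochberg adjusted p 0.9998. By this test 0 of 18366 genes were called at an adjusted p under 0.05 (percent called 0%), 648 (3.53%) had an unadjusted p under 0.05, and DESeq2 called 169 (0.92%).

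Csf1r was called by 1 of the 3 tools. With limma voom and sample quality weights, which change both the tool and the weights, the log2 fold change was -2.61 with an adjusted p of 0.0201, beside 377 genes called (2.05%). DESeq2 gave -1.52 with an adjusted p of 0.341. Transcripts of the Y-linked gene Ddx3y were present in vehicle mice 1 and 2 and PLX3397 mice 1 and 2 and nearly absent (0 to 4 counts) in mice 3 and 4 of each group. Within the first set Csf1r was at 293.2 and 282.7 CPM against 173.2 and 105.9, and within the second at 270.5 and 154.8 against 24.6 and 44.3. With Ddx3y as a covariate, edgeR's quasi-likelihood test gave a log2 fold change of -1.83 for Csf1r (adjusted p = 0.36), which was not called.

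Csf1 was at 256.2, 173.6, 225.9 and 265.4 CPM in the vehicle tumours and at 199.9, 173.7, 252.3 and 290.1 CPM in the PLX3397 tumours. The ranges covered each other almost wholly. The log2 fold change was -0.01 (SE 0.20, adjusted p = 0.9998 by edgeR's quasi-likelihood test), and its sign turned with RLE size factors (0.01). Il34 was at 41.6, 50.6, 37.7 and 33.1 CPM in the vehicle tumours and at 47.4, 43.7, 52.7 and 40.7 CPM in the PLX3397 tumours. These ranges overlapped too, with a log2 fold change of 0.18 (SE 0.16, adjusted p = 0.9998 by the same test).

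Per kilobase of exon, on which levels of different genes can be set side by side, Csf1r and Csf1 overlapped in vehicle tumours and Il34 lay below both. Csf1r, on the plus strand of chromosome 18 from 61100598 to 61132149 (GRCm38), has 5.77 kb of exon, Csf1 5.28 kb and Il34 1.96 kb. Csf1r ranged from 26.8 to 50.8, Csf1 from 32.9 to 50.3 and Il34 from 16.9 to 25.8 CPM per kb. In PLX3397 tumours Csf1 was at 32.9 to 54.9, Il34 at 20.8 to 26.9 and Csf1r at 4.26 to 29.99 CPM per kb. The ratio of Csf1 to Csf1r on this scale was 0.956, 0.671, 0.913 and 1.87 in the vehicle tumours and 1.26, 1.79, 11.2 and 7.16 in the PLX3397 tumours. PLX3397 mice 3 and 4 thus had more ligand transcript per receptor transcript than any vehicle mouse, while PLX3397 mice 1 and 2 were within the vehicle range. Csf1 exceeded Il34 by 1.27 to 2.98 times in all 8 tumours.

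**Figure D3:**
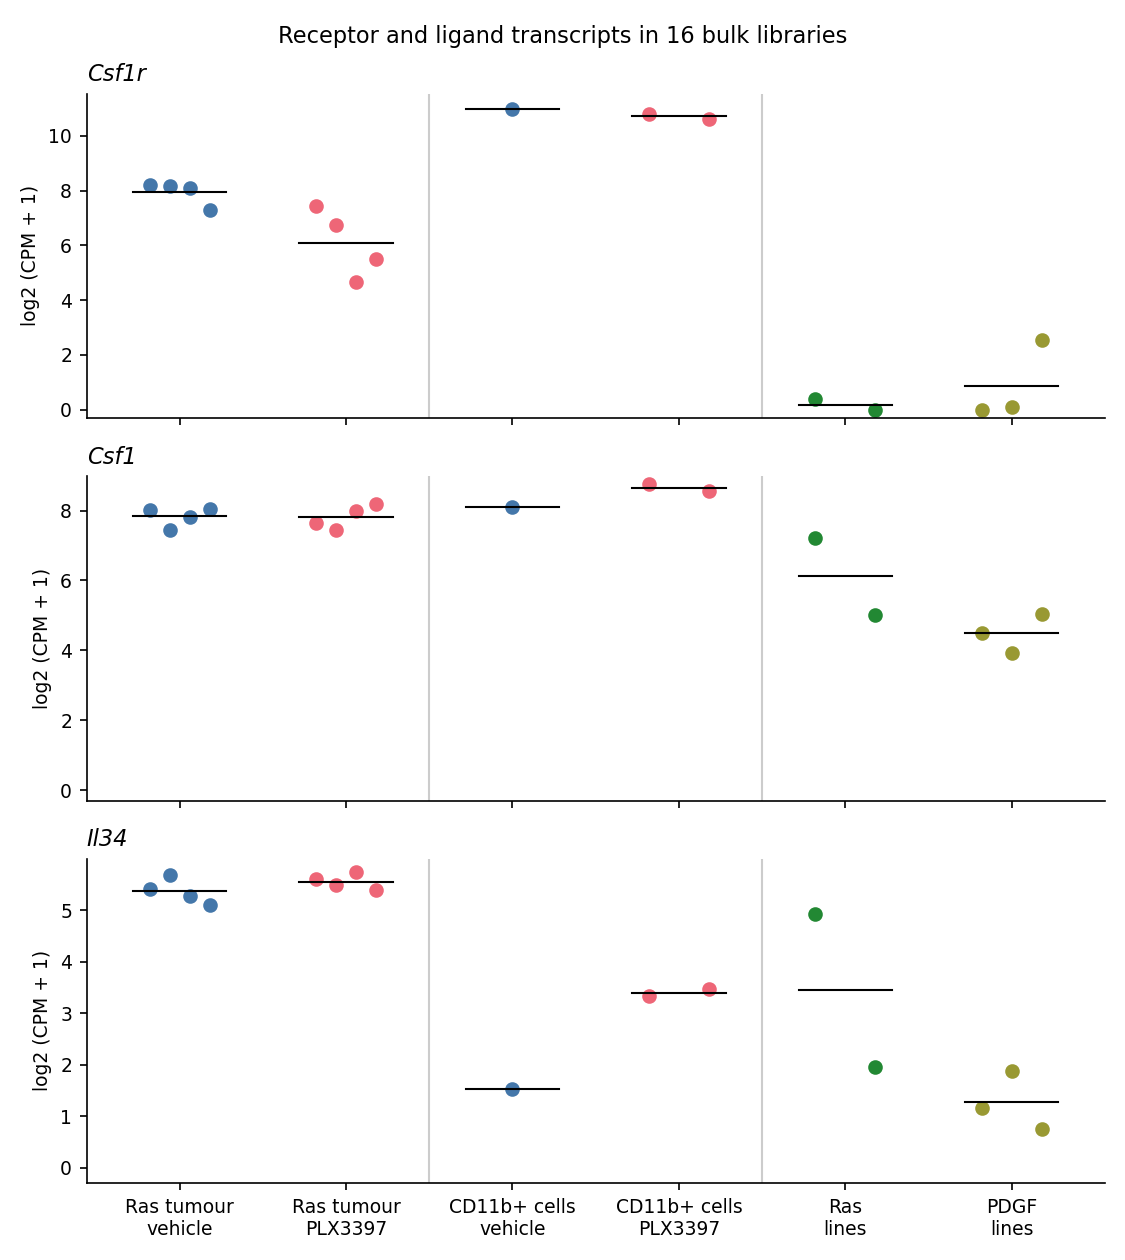
Levels of Csf1r, Csf1 and Il34 in the 16 bulk libraries as log2 (CPM + 1), 1 point per library, with a line at the mean of each group. Vertical lines part the 3 tables, which were scaled separately, so levels are compared within a table only. Csf1r is lower in the PLX3397 tumours than in 3 of the 4 vehicle tumours and near 0 in 4 of the 5 lines, and Il34 is higher in both PLX3397 CD11b+ libraries than in the vehicle library.

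Genes that mark macrophages stood lower with the receptor. All 13 pan-macrophage genes had a log2 fold change below 0, with a median of -1.29 beside 0 for all genes tested, and 10 had an unadjusted p under 0.05, but none was called. Their summed level was 1755 to 3328 CPM in vehicle and 442 to 1655 CPM in PLX3397 tumours, with no marker at 0. The 3 with the smallest unadjusted p were Adgre1 (F4/80, -1.95, SE 0.45), Ms4a7 (-1.89, SE 0.47) and Laptm5 (-1.13, SE 0.29), whose groups did not overlap, as was so for 2.54% of all genes. Other lists differed too, with no gene called: oligodendrocyte markers were above 0 in 8 of 8 (median 0.69), astrocyte markers in 7 of 8 (0.56) and erythroid markers in 0 of 5 (-0.88). Vehicle mouse 4, the vehicle tumour with the lowest Csf1r, had the highest neutrophil sum (549.5 CPM, against 22.5 to 219 in the other 7) and the lowest oligodendrocyte sum (64.7 CPM). The part of these cell types in the values of Csf1r was not tested. In whole tissue, fewer macrophages and less Csf1r RNA per macrophage cannot be told apart.

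Relative to the mean of the 13 pan-macrophage genes, Csf1r stood 0.81, 1.46, 1.29 and 0.90 log2 units higher in vehicle mice 1 to 4, and 1.15, 0.89, 0.29 and 0.36 higher in PLX3397 mice 1 to 4. The group difference was -0.44, against a spread within groups of 0.37 (SD). PLX3397 mice 3 and 4 were below every vehicle mouse, and PLX3397 mouse 1 was above 2 of them. No test was made on it.

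**Figure D4:**
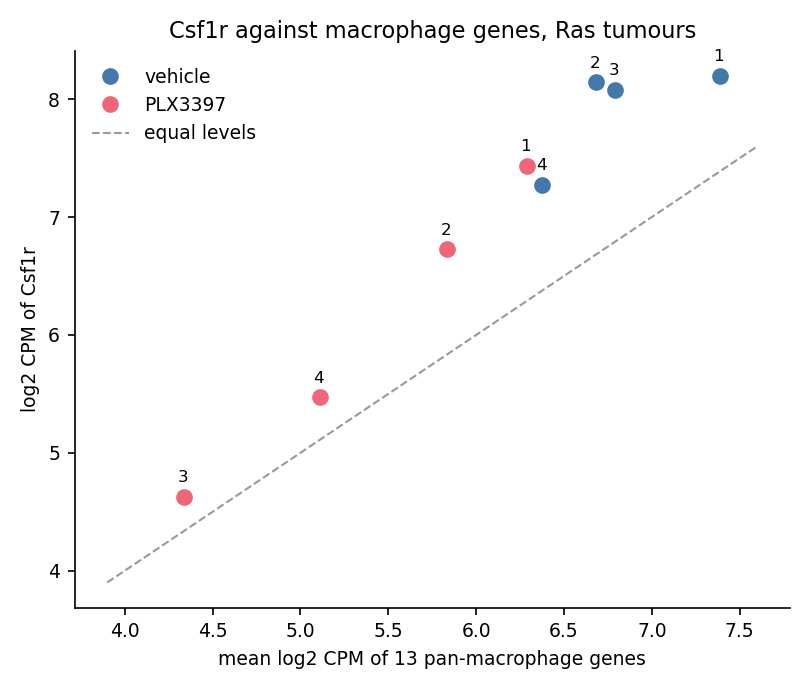
Csf1r against the mean of 13 pan-macrophage genes in the 8 Ras tumours, both as log2 CPM, with the mouse number beside each point and a dashed line where they are equal. Points of vehicle and PLX3397 tumours form 1 rising series, with PLX3397 mice 3 and 4 at the lower end and closest to the dashed line.

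Over these 8 tumours and 11690 genes, the genes most like Csf1r by Pearson's r of log2 CPM were Selplg (0.997), Inpp5d (0.993) and the complement genes C1qb (0.992), C1qa (0.992) and C1qc (0.991). The genes most like Csf1 were Tvp23b (0.982), Spcs2 (0.979), Ska2 (0.976), Cycs (0.975) and Larp7 (0.970). The genes most like Il34 were Zswim1 (0.948), Map6 (0.931), Nxpe3 (0.931), C1ql3 (0.926) and Cep131 (0.925). No macrophage marker stood among the genes most like either ligand.

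None of the pathway genes was called in the Ras tumours. All 5 transcription factors that act on Csf1r had negative log2 fold changes (median -0.52), with Spi1 at -1.51 (SE 0.52, groups not overlapping), Irf8 at -0.63 and Cebpa at -0.52. Of 17 signalling partners, 14 were at or below 0, with a median of -0.07. Those with the smallest p were Plcg2, a phospholipase (-1.24, SE 0.25), the phosphatases Ptpn6 (-1.72, SE 0.54) and Inpp5d (-1.26, SE 0.43), and the kinase subunit Pik3cd (-1.29, SE 0.41). All 4 were more abundant in macrophage-like than in neural-like 10x cells, as with Inpp5d at 122 CPM in the Arg1 cluster and 0.429 CPM in the Tnr cluster. Csf2rb was at -1.43 (SE 0.42) and Csf2ra at -0.88 (SE 0.31). Adam17, the protease that sheds CSF1 and CSF1R from the cell surface, was at -0.07 (SE 0.15). Kit was at 0.21 (SE 0.54), Flt3 at -0.23 (SE 0.32), Ptprz1 at 0.43 (SE 0.97) and Sdc1 at -0.15 (SE 0.28).

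In CD11b+ cells of PDGFB tumours after 3 days of PLX3397, Il34 rose and the receptor and Csf1 did not pass the test. Csf1r was the most abundant member, at 2032 CPM in the vehicle library and 1784 and 1580 CPM in the PLX3397 libraries. Both treated libraries were below the vehicle library, by a log2 fold change of -0.27 (SE 0.24, adjusted p = 0.504 by edgeR's quasi-likelihood test). Csf1 was at 273 CPM with vehicle and at 429 and 379 CPM with PLX3397. Both treated libraries were above the vehicle library, with a log2 fold change of 0.57 (SE 0.19, adjusted p = 0.131).

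Il34 was at 1.87 CPM with vehicle (56 counts) and at 9.01 and 10.1 CPM with PLX3397 (244 and 309 counts). This 5.10-fold rise was called by the same test (log2 fold change 2.35, SE 0.33, adjusted p = 0.0377). The test called 956 of 15052 genes (6.35%), 688 of them higher (4.57%) and 268 lower (1.78%), and DESeq2 called 1968 (13.1%), while 29.3% of genes had an unadjusted p under 0.05. With 1 vehicle library its spread is taken from the 2 treated ones, and 83.6% of all genes had groups that did not overlap. In data simulated from these libraries the edgeR test made 43 false calls. Beside them it found 32 of 67 genes changed 2-fold, 52 of 67 changed 4-fold and 61 of 66 changed 8-fold. Csf1 exceeded Il34 per kilobase by 54.2 times in the vehicle library and by 17.7 and 13.9 times in the PLX3397 libraries.

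Markers of cells other than myeloid cells moved with Il34 in these libraries. The summed astrocyte markers (8 of 8 above 0 in log2 fold change, 6 called higher) were at 127 CPM with vehicle and 690.0 to 729 CPM with PLX3397. The oligodendrocyte precursor markers (8 of 8 above 0, 3 called) were at 30.01 and 121 to 132 CPM. The neuron markers (8 of 8 above 0, 4 called, 1 of them at 0 with vehicle) were at 29.9 and 128 to 142 CPM. The fibroblast markers (7 of 7 above 0, 2 called) were at 159 and 600.0 to 1066 CPM, and the pericyte markers (8 of 8 above 0, 1 called) at 288 and 424 to 491 CPM. The endothelial markers (9 of 10 above 0, none called) were at 206 and 259 to 449.7 CPM. The summed pan-macrophage markers were at 14100 CPM with vehicle and 11830 and 16150 CPM with PLX3397. Those of monocyte-derived macrophages (3 of 11 above 0, 1 called lower) were at 4674 CPM with vehicle and 2666 and 3568 CPM with PLX3397. In the Ras tumour's 10x library, macrophage-like cells had an Il34 level of 0.444 CPM. The part of other cell types in the rise of Il34 was not tested.

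For Csf1, the markers of neutrophils, the cells with the highest Csf1 level in the Ras tumour, were at 324 CPM with vehicle and at 234 and 574 CPM in PLX3397 mice 1 and 2. Mmp9 made up 194 CPM of the vehicle sum and stood at -1.37 (SE 0.82). The other 9 of the 10 markers had a log2 fold change above 0 (list median 1.30), beside 7603 of the 15052 genes tested. By edgeR's quasi-likelihood test 3 of the 10 had an unadjusted p under 0.05, near the 29.3% of all genes, and none was called. The part of neutrophils in the values of Csf1 was not tested.

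**Figure D5:**
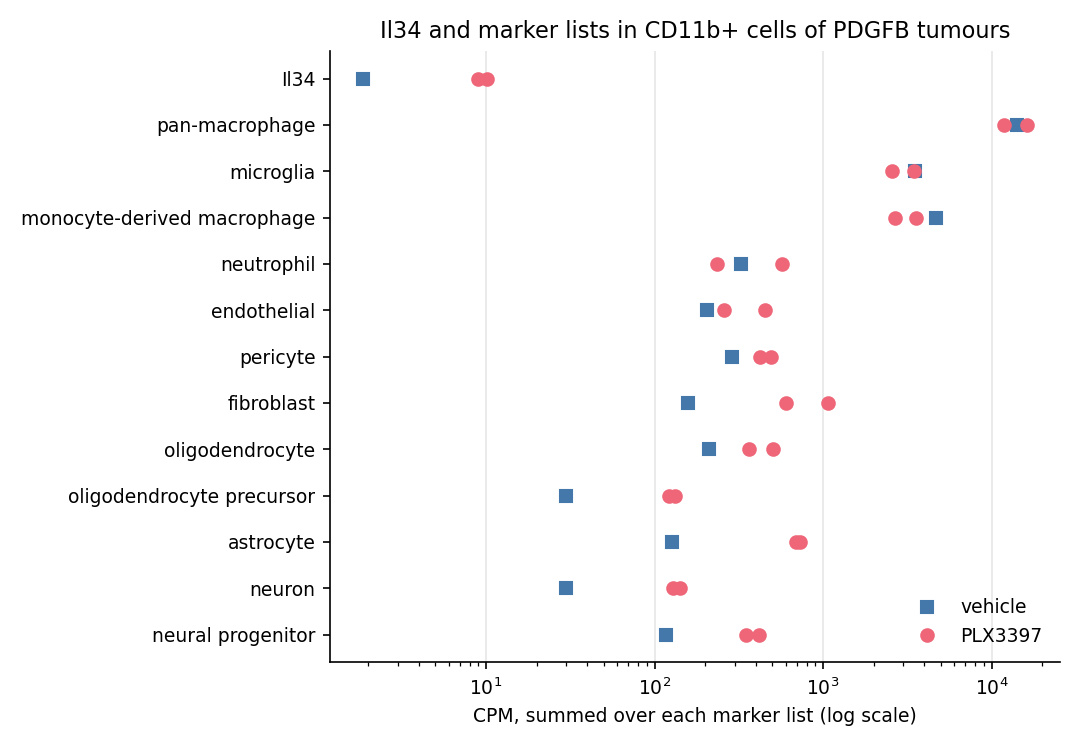
Il34 and summed marker lists in the CD11b+ libraries of PDGFB tumours, in CPM on a log axis, with a square for the vehicle library and circles for the 2 PLX3397 libraries. Il34 and the neural, fibroblast, pericyte and endothelial sums are higher in both PLX3397 libraries, while the pan-macrophage and microglia sums are not. The sum of monocyte-derived macrophage markers is lower in both. The neutrophil sum is higher in 1 of the 2 PLX3397 libraries, although 9 of its 10 members had a log2 fold change above 0.

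Among the pathway genes of the CD11b+ cells, Ptprz1 and Kitl were called higher. Ptprz1 rose by 3.35 (SE 0.31, adjusted p = 0.0305 by edgeR's quasi-likelihood test), from 1.57 to 16 CPM, and is abundant in neural-like cells of the 10x library. Kitl, the KIT ligand, rose by 1.39 (SE 0.20, adjusted p = 0.0381). Sdc1 was at 1.34 (SE 0.42, adjusted p = 0.125). The signalling partners had a median of -0.14 beside 0.01 for all genes. Plcg2, Pik3cd and Ptpn6 stood at -0.75, -0.75 and -0.76 and were not called. None of the 5 transcription factors was called, with Spi1 at -0.50 (SE 0.20, adjusted p = 0.179). Kit was at 1.10 (SE 0.52), Flt3 at 0.23 (SE 0.28) and Csf3r, the G-CSF receptor, at 0.83 (SE 0.19).

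Of the microglia list, 1 of 10 genes was called, Siglech, which fell by 0.98 (SE 0.17, adjusted p = 0.0483 by the same test). Cx3cr1 was at -0.90 (SE 0.23) and P2ry12 at -0.84 (SE 0.30). None of the 13 pan-macrophage genes was called, and their median was -0.02. Relative to the mean of these genes, Csf1r stood 1.45 log2 units higher with vehicle and 1.13 and 1.36 with PLX3397. The markers of dividing cells (8 of 8 below 0, 4 called lower) were at 1091 CPM with vehicle and at 245 and 362 CPM with PLX3397.

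The Ras tumour and CD11b+ experiments differed in tumour driver, cell selection, days of treatment and library preparation, so the values stand side by side without a test of their difference. Csf1r was at -1.52 (SE 0.57) in the tumours and -0.27 (SE 0.24) in the CD11b+ cells. Csf1 was at -0.01 and 0.57, and Il34 at 0.18 and 2.35.

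Cultured tumour cells held transcripts of both ligands and almost none of the receptor. Csf1r had 10 and 0 counts in Ras lines 1 and 2 and 0, 2 and 162 counts in PDGF lines 1 to 3, and it was too low to be tested. The 162 counts of PDGF line 3 (4.79 CPM) came with a summed level of 175 CPM for the pan-macrophage genes (13 of 13 detected), against 7.84 and 9.81 CPM in the other PDGF lines and 20.2 and 11.6 CPM in the Ras lines. Whether macrophages were present in that culture was not tested.

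Csf1 was at 148 and 31.4 CPM in Ras lines 1 and 2 and at 21.4, 14.3 and 31.6 CPM in PDGF lines 1 to 3. Ras line 1 stood apart, and Ras line 2 was level with PDGF line 3. The log2 fold change of Ras against PDGF lines was 2.00 (SE 0.72, adjusted p = 0.288 by edgeR's quasi-likelihood test). Il34 was at 29.5 and 2.89 CPM in the Ras lines and at 1.24, 2.69 and 0.681 CPM in the PDGF lines. The groups did not overlap, as was so for 38.6% of all genes, but Ras line 2 was only just above PDGF line 2. The log2 fold change was 3.39 (SE 1.13, adjusted p = 0.271 by the same test), and DESeq2 called it (3.41, adjusted p = 0.0241).

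The edgeR test called 0 of 17475 genes between the lines (percent called 0%), with 2842 (16.3%) at an unadjusted p under 0.05, and DESeq2 called 2110 (12.1%). Both ligand differences rested on Ras line 1. Without it Csf1 was at 0.48 and Il34 at 0.91. Without Ras line 2, the lone Ras line being assumed to vary like the others, Csf1 was at 2.70 (adjusted p = 0.0367) and Il34 at 4.24 (adjusted p = 0.0437), both called, among 2111 genes. Per kilobase, Csf1 exceeded Il34 in every line, by 1.86 and 4.03 times in the Ras lines and by 6.40, 1.97 and 17.2 times in the PDGF lines.

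Among the pathway genes of the lines none was called. Kitl had the smallest p, at 116 CPM in the Ras lines and 5.93 CPM in the PDGF lines (log2 fold change 4.29, SE 0.28, adjusted p = 0.120 by edgeR's quasi-likelihood test). Adam17 was at 0.78 (SE 0.21), Sdc1 at 0.30 (SE 0.23) and Ptprz1 at -0.76 (SE 1.31). Of the transcription factors, Cebpa was at 3.15 (SE 1.03) and Irf8 at -2.91 (SE 0.74). Kit was at 0.14 (SE 0.38), 60.1 CPM in the Ras lines and 54.5 CPM in the PDGF lines, and Flt3 at 2.28 (SE 1.01) with both groups near 1 CPM or lower.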

How the data were processed

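The values used were raw counts per gene (3 bulk tables) and UMI counts per gene and barcode (2 single-cell tables), as the authors deposited them. The submitters' processing notes name, without roles, STAR 2.6.1e and featureCounts 1.6.2, Cell Ranger, the builds GRCm38 and mm10, as well as cutadapt 1.9.1, Trim Galore 0.4.2 and FastQC 0.11.7, and the matrix header gives software version 3.1.0 for the 10x table. The Drop-seq tool and the use of strand in counting are not given in the sources used here. In the line table, 5 columns matched no sample and were not used. Rows that name no gene held at most 0.360% of counts and were left out.

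Bulk counts were tested with edgeR 4.0.16 (TMM, filterByExpr, robust quasi-likelihood test) in R 4.3.3 over all genes passing the filter, with Benjamini-Hochberg adjustment and calls at 0.05. Alternatives were DESeq2 1.42.0, RLE size factors, no filter, limma 3.58.1 voom with sample quality weights, Ddx3y as a covariate, the replicate number as a block and each library left out. SEs of edgeR values are the log2 fold change over the square root of F. In data simulated from the Ras tumours (18366 genes), edgeR called 37 of 67 genes changed 4-fold and 7 of 67 changed 2-fold. For the lines (17475 genes) it called 0 of 67 changed 4-fold and 10 of 66 changed 8-fold. False calls numbered 5 and 1. For the CD11b+ cells (15052 genes) it called 32 of 67 changed 2-fold, 52 of 67 changed 4-fold and 61 of 66 changed 8-fold, with 43 false calls in all. DESeq2 made 69 false calls for the tumours, 18 for the CD11b+ cells and 131 for the lines. No 2 replicates agreed within counting noise. Lengths of exon unions came from GENCODE M21.

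Filters removed 10x barcodes under 500 UMIs or 300 genes, Drop-seq barcodes under 300 UMIs or 200 genes, and any with over 20% of UMIs from mitochondrial genes. The rest were clustered without the 3 members with scanpy 1.11.5 (2000 variable genes, 30 components, 15 neighbours, Leiden resolution 0.5). No doublet caller was run; leaving out the 5% of barcodes with most UMIs was an alternative. Thinned shares are exact expectations for draws without replacement. Genes named beside the members were, for each pathway list, the 4 with the smallest p, with Kit and Flt3, and the 5 most like each member. A few others are named only for their cluster or list values and were chosen after their values were seen. The members and lists were chosen with earlier results of these data known. One result of a pathway list is not reported here.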

Additional observations from a re-analysis of the deposited data

Results flagged for a closer look

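Csf1r in vehicle Ras tumour 4, at 154.8 CPM, lay far from the other 3 vehicle tumours (270.5 to 293.2 CPM), with a gap of 0.836 of the group's range, just above Dixon's critical value for 4 samples. Chance gives such a gap in about 1 in 20 groups, and 10 sets of 4 values were looked at. Without that mouse the log2 fold change of Csf1r was -1.70 and not called (adjusted p = 0.95 by edgeR's quasi-likelihood test).

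The barcodes that failed the filters also held members' UMIs. In the 10x library, 1064 barcodes, 1054 of them above 20% mitochondrial UMIs, held 92 Csf1r, 100 Csf1 and 21 Il34 UMIs, or 20.1, 21.8 and 4.58 CPM. The kept cells held 64.8, 23.3 and 3.62 CPM. In the Drop-seq library the 99 barcodes left out held 4 Csf1 UMIs, or 33.4 CPM against 18.6 in the kept cells.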

How the results depend on the processing

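Of 199 values under other settings, 166 kept their direction and side of the threshold or stayed within their error. In the Ras tumours, the number of genes called was 169 with DESeq2, 1 without a filter and 377 with voom quality weights, where Csf1r was called at -2.61. Leaving out 1 library gave -2.10 to -1.22 for Csf1r, -0.14 to 0.10 for Csf1 and 0.11 to 0.30 for Il34. The sign of Csf1 turned with DESeq2 (0.01), RLE size factors (0.01) and voom quality weights (0.24). In CD11b+ cells, the number called was 1968 with DESeq2 and 1907 without a filter, and Il34 was 2.34 to 2.36 throughout. Between the lines, it was 2110 with DESeq2, 1 without a filter and 0 to 2111 with 1 library left out, where Csf1 ranged from 0.48 to 2.70 and Il34 from 0.91 to 4.24, and DESeq2 gave 3.41 for Il34. The cause was not tested.

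Shared replicate numbers did not pair the samples. Same-numbered Ras tumours correlated at 0.11, 0.13, -0.42 and 0.45, and lines at -0.18 and -0.11. With the number as a block, Csf1r was at -1.83 in the tumours, and Csf1 and Il34 at 1.96 and 2.33 in the lines, none called. No paired analysis was possible for the CD11b+ cells because the groups share only 1 number, and leaving out 1 library there leaves no residual degrees of freedom.

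Single-cell values of neural-like clusters moved with which clusters took that name. In 10x, resolution 1.0 gave 8.41 (Csf1r), 36.8 (Csf1) and 8.76 CPM (Il34), a minimum of 1000 UMIs 5.99, 27.5 and 8.52 CPM, and leaving out the 5% of barcodes with most UMIs 27.3 (Csf1) and 6.63 CPM (Il34). That last setting also gave shares of UMIs in macrophage-like clusters of 97.3% (Csf1r) and 40.9% (Csf1) and an Il34 level of 66.0 CPM in the Igfbp7 cluster. In Drop-seq, clustering with the 3 genes left only the 22-cell cluster named neural-like, with 0 (Csf1r), 107 (Csf1) and 0 CPM (Il34). Alternatives for the Igfbp7 and neutrophil-like clusters were chosen after seeing the data. Depth limits Il34, with 198 and 35 UMIs in the kept cells.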
